A study of Homo sapiens with 9 samples.

Results

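The negative limb of the circadian clock was examined in 786-O cells, an established line from a clear cell renal cell carcinoma. Its 8 genes were chosen by name from the make-up of the clock, out of 38021 genes in the table, with earlier results of these data known. They were the repressors PER1, PER2, PER3, CRY1 and CRY2, the kinases CSNK1D and CSNK1E, and the ubiquitin ligase subunit BTRC. 786-O cells lack functional VHL and so keep HIF2α at normal oxygen. All 3 groups carried a lentiviral pLKO.1 short hairpin RNA (shRNA) and were selected in puromycin: shControl carried a control hairpin, shARNT a hairpin against ARNT and shBMAL1 a hairpin against BMAL1. Each group held 3 libraries labelled as biological replicates, from 1 hairpin per target, and no oxygen or drug treatment was labelled. No synchronisation and no time of harvest were given for these cultures, so a level cannot be placed within a daily cycle.

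In the clock of mammals, the transcription factors BMAL1 and CLOCK bind E-box sequences and switch on the PER and CRY genes. PER and CRY proteins then enter the nucleus and repress BMAL1 and CLOCK, which closes the loop. Casein kinases CK1δ (CSNK1D) and CK1ε (CSNK1E) phosphorylate PER proteins, and β-TrCP (BTRC), the substrate receptor of an SCF ubiquitin ligase, recognises phosphorylated PER and leads to its degradation. HIF2α binds DNA as a dimer with ARNT, which, like BMAL1, is a bHLH-PAS protein.

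Library totals lay between 33793045 and 35444735 reads. BMAL1 transcript, listed as ARNTL, was measured at 735 to 797 normalised read counts with shControl, 567.5 to 676 with shARNT and 292 to 345.5 with shBMAL1. ARNT was at 2187 to 2551 in shControl, 1199 to 1239 in shARNT and 1928 to 2072 in shBMAL1. Each targeted transcript was therefore lowest in its own knockdown and was still present there. The renal epithelial markers PAX8, PAX2 and CDH6 were detected in every library, and they moved with the groups: mean counts for shControl, shARNT and shBMAL1 were 10004, 10031 and 7156 for PAX8, 613, 602 and 825 for PAX2, and 13874, 27963 and 45691 for CDH6. Their part in the results was not tested. The leukocyte genes PTPRC and CD3E and the endothelial genes CDH5, VWF and PECAM1 stayed between 0 and 8.95, whereas CD68, a lysosomal protein used as a macrophage marker, was at 5325 to 7882 in all libraries. Mitochondrially encoded genes took 5.49% to 7.18% of reads with shControl, 7.64% to 8.79% with shARNT and 8.77% to 9.73% with shBMAL1. The part of this share in the results was not tested.

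Sequence upstream of the annotated starts was examined first, because BMAL1 with CLOCK, and HIF2α with ARNT, recognise short related motifs. RefSeq windows of 300 bases (250 before and 50 after a start, GRCh38.p14) matched 6 of the 8 genes, with 9 windows among them. CSNK1D and BTRC had no window. Both strands were searched for the E-box CACGTG, its variant CACGTT, the D-box forms TTACGTAA and TTATGTAA, the hypoxia response element cores ACGTG and GCGTG, and the cAMP response element TGACGTCA. The core ACGTG lies within the E-box and within the variant read on its opposite strand. The 250 bases before the start are shown for the 5 repressors, as they hold E-box and D-box matches that the results refer back to. Capitals mark the E-box, its variant (AACGTG where it is read on the opposite strand) or a D-box that lies wholly before the start; the PER2 D-box runs past the start and is not marked.
PER1 (chr17:8152405-8152654, minus strand): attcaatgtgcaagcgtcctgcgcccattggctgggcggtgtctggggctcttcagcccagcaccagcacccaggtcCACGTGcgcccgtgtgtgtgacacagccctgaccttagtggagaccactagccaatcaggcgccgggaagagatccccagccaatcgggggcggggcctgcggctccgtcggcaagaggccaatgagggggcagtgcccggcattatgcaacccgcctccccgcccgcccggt
PER2 (chr2:238288611-238288860, minus strand): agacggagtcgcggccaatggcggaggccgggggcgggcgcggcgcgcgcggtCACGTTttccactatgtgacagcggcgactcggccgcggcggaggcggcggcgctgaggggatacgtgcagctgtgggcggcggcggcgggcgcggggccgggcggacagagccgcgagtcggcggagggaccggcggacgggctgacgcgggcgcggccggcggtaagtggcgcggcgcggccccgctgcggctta
PER3, start 1 (chr1:7784041-7784290, plus strand): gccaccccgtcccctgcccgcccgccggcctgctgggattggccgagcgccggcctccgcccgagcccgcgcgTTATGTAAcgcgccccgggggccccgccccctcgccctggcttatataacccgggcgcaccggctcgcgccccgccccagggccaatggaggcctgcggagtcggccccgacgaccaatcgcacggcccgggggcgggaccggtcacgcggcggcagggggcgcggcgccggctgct
CRY1 (chr12:107093550-107093799, minus strand): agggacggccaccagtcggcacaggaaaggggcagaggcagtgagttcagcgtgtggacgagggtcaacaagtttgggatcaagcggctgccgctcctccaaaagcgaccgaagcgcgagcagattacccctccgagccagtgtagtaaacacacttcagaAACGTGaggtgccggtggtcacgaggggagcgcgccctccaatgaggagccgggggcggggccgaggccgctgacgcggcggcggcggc
CRY2, start 2 (chr11:45847225-45847474, plus strand): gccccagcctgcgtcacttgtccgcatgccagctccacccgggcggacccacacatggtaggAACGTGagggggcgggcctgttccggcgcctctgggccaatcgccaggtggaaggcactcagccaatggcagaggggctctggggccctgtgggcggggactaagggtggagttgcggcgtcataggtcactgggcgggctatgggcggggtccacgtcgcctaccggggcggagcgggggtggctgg

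PER1 alone among the 6 genes had the full E-box, which began 173 bases before its start. It is found in 7.26% of the 35116 windows of the whole table. The variant CACGTT began 197 bases before the start of PER2, 89 bases before that of CRY1, 188 bases before start 2 of CRY2 and 80 bases before start 2 of CSNK1E, and it is found in 5.34% of windows. Neither PER3 window held the E-box or this variant. A D-box of the T form (0.886% of windows) lay 177 bases before start 1 of PER3, and a D-box of the C form (0.125% of windows) began 3 bases before the start of PER2 and ran across it. The core ACGTG (21.4% of windows) had 3 matches apart from an E-box or variant: 134 bases before the start of PER2, 35 bases before start 2 of CRY2, and 31 bases past start 1 of CRY2. GCGTG, found in 36.5% of windows, lay at 2 places in the overlapping PER3 windows (33 bases before and 7 bases past start 1, which are 171 and 132 bases before start 2), 201 bases before the start of CRY1, 173 bases before start 1 of CSNK1E and 42 bases past the start of PER1. The element TGACGTCA (1.85% of windows) was in none of the 9. A match is a description of letters in a window, and no binding was measured in these files.

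**Figure D1:**
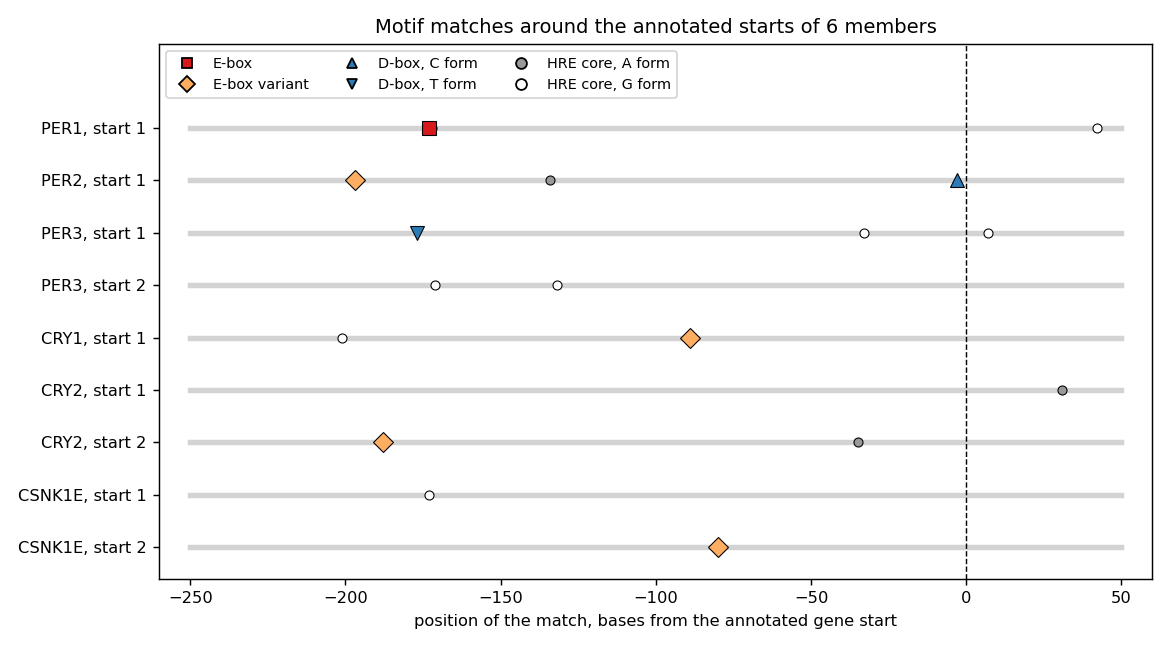
Motif matches in 300-base windows around the annotated starts of 6 genes of the negative limb, with the first base of each match placed by its distance in bases from the start (dashed line). PER1 carries the only E-box (173 bases before the start), PER2, CRY1, CRY2 start 2 and CSNK1E start 2 carry the variant, and both PER3 windows carry neither; ACGTG cores that lie within an E-box or variant are hidden behind that symbol.

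The first question was whether lowering BMAL1 changed the transcripts of its own repressors. In shBMAL1 against shControl, PER1, PER3, CRY1, CSNK1E and BTRC fell, PER2 and CRY2 rose, and CSNK1D did not pass the test. Thus 5 of the 8 genes were called lower, where 19.4% of all 19036 genes tested were, and 2 were called higher, where 17.4% were. The median log2 fold change of the 8 was −0.26, against 0.015 over all genes tested. In RNA from whole cultures, a change in some cells and a change in all of them cannot be told apart. Genes were called at a DESeq2 adjusted p under 0.1, the study's threshold, and all differences below are log2 fold changes of normalised read counts.

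PER3 (GRCh37 chr1:7844351-7905237, plus strand, protein-coding) differed most. It had 1168, 1140 and 1065 normalised read counts in shControl, 1524, 1525 and 1477 in shARNT, and 523.2, 540.2 and 416.2 in shBMAL1. The 3 groups did not overlap, with shARNT highest and shBMAL1 lowest. PER3 fell under shBMAL1 (log2 fold change −1.19, SE 0.11, DESeq2 adjusted p 1.25e-25), to 0.438 of the control level, and rose under shARNT by 0.43 (SE 0.07, adjusted p 9.85e-08). PER3, thought to be dispensable for the core rhythm, had the largest estimated difference of the 5 repressors under shBMAL1, and its annotated starts had neither form of the E-box searched for. In the direct comparison of shBMAL1 with shARNT it was lower (log2 fold change −1.61, SE 0.10, adjusted p 3.03e-53). UTS2 overlaps 10.7% of its exon bases on the opposite strand and was at 0 in every library.

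PER1 (chr17:8043790-8059824, minus strand, protein-coding), a core repressor that also responds acutely to stimuli, had 434.7, 477.8 and 525.7 counts in shControl, 528.1, 537.2 and 526.8 in shARNT, and 331.6, 320.5 and 347.6 in shBMAL1. All shBMAL1 libraries lay below all others. It fell under shBMAL1 (log2 fold change −0.53, SE 0.12, DESeq2 adjusted p 0.000177). Under shARNT its log2 fold change was 0.15 (95% interval −0.06 to 0.36, adjusted p 0.324), which did not pass the test although the groups did not overlap. The direct comparison gave −0.67 (SE 0.11, adjusted p 7.48e-08).

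PER2 (chr2:239152685-239198743, minus strand, protein-coding), a core repressor whose loss disrupts rhythms in mice, rose. Its counts were 434.7, 403.9 and 420.5 in shControl, 624.6, 535.2 and 454.2 in shARNT, and 588.8, 595.6 and 519.0 in shBMAL1. Every knockdown library lay above every control library, and the shARNT libraries were widely spread. PER2 rose under shBMAL1 by 0.43 (SE 0.11, DESeq2 adjusted p 0.000832) and under shARNT by 0.36 (SE 0.12, adjusted p 0.0156). The call under shARNT was lost without shARNT replicate 1, at 0.24 (adjusted p 0.201). Between the knockdowns the log2 fold change was 0.08 (95% interval −0.17 to 0.32, adjusted p 0.722). The knockdowns share their control libraries, so chance deviations in those libraries enter both values.

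CRY1 and CRY2, the cryptochromes that hold BMAL1 and CLOCK inactive, moved in opposite directions under shBMAL1. CRY1 (chr12:107385142-107487327, minus strand, protein-coding) had 1878, 1788 and 1623 counts in shControl, 1692, 1786 and 1805 in shARNT, and 1312, 1528 and 1467 in shBMAL1. Its shBMAL1 libraries lay below all others. CRY1 fell under shBMAL1 (log2 fold change −0.30, SE 0.09, DESeq2 adjusted p 0.00389), and the direct comparison gave −0.30 (SE 0.08, adjusted p 0.0023). Under shARNT its 95% interval ran from −0.14 to 0.15.

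CRY2 (chr11:45868669-45904799, plus strand, protein-coding) had 300.9, 266.9 and 305.3 counts in shControl, 266.0, 268.1 and 302.2 in shARNT, and 402.1, 399.1 and 442.6 in shBMAL1. The shBMAL1 libraries lay above all others, and shARNT overlapped shControl. CRY2 rose under shBMAL1 by 0.51 (SE 0.13, DESeq2 adjusted p 0.00053) and was higher there than under shARNT by 0.57 (SE 0.13, adjusted p 8.55e-05). Under shARNT the 95% interval was −0.33 to 0.21.

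**Figure D2:**
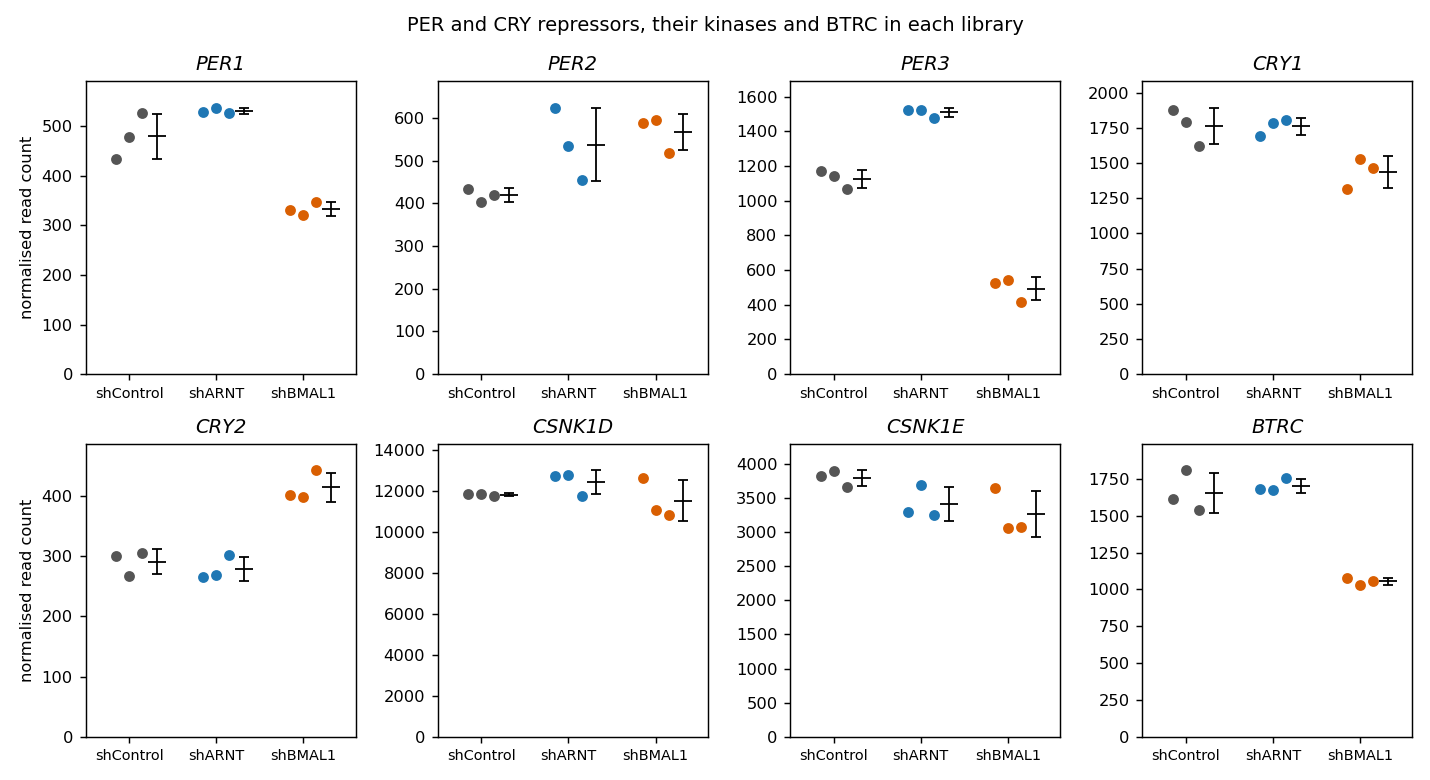
Normalised read counts (linear axis from 0) of the 8 genes in each of the 9 libraries, with points for libraries and the black mark for the group mean ± SD (n = 3). PER1, PER3, CRY1 and BTRC are lowest in all 3 shBMAL1 libraries, CRY2 is highest there, and CSNK1D overlaps in all groups.

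BTRC had a larger estimated difference under shBMAL1 than CSNK1D and CSNK1E. BTRC (chr10:103113790-103317078, plus strand, protein-coding) had 1615, 1807 and 1542 counts in shControl, 1678, 1674 and 1753 in shARNT, and 1075, 1031 and 1057 in shBMAL1. The shBMAL1 libraries lay close together and far below the rest. BTRC fell under shBMAL1 (log2 fold change −0.65, SE 0.09, DESeq2 adjusted p 1.76e-12), to 0.636 of the control level, and the direct comparison gave −0.69 (SE 0.08, adjusted p 3.74e-17). Under shARNT the 95% interval was −0.10 to 0.19. β-TrCP also recognises other phosphorylated proteins, among them β-catenin and the inhibitor of NF-κB, so the gene is not particular to the clock.

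The casein kinases differed little. CSNK1D (chr17:80196899-80231576, minus strand, protein-coding) had 11870, 11872 and 11759 counts in shControl, 12758, 12783 and 11759 in shARNT, and 12666, 11099 and 10849 in shBMAL1. The groups overlapped, and the 95% interval was −0.02 to 0.17 under shARNT and −0.17 to 0.10 under shBMAL1. Its exons share 482 bases (4.38%) with SLC16A3 on the opposite strand, which averaged 22582 deposited counts, and whether counting used strand was not given. The direct comparison, −0.11 (adjusted p 0.276), passed the test only without shBMAL1 replicate 1, at −0.18 (DESeq2 adjusted p 0.0168).

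CSNK1E (chr22:38686697-38714089, minus strand, protein-coding) had 3818, 3889 and 3665 counts in shControl, 3298, 3694 and 3249 in shARNT, and 3649, 3066 and 3075 in shBMAL1. It was called lower under shBMAL1 (−0.22, SE 0.08, DESeq2 adjusted p 0.0238) and under shARNT (−0.15, SE 0.06, adjusted p 0.0655), where 1 shARNT library lay within the control range. The call under shBMAL1 was lost without shControl replicate 2, shBMAL1 replicate 2 or shBMAL1 replicate 3 (adjusted p 0.104, 0.147 and 0.124). The call under shARNT was lost without shControl replicate 1 or 2 or shARNT replicate 1 or 3 (adjusted p 0.175 to 0.284). A second row of the table, the readthrough gene LOC400927-CSNK1E, held 0.5 times the CSNK1E value in all 9 libraries, so reads were divided between these rows and the level of CSNK1E is uncertain. Adding the rows changed no call of the 8 genes.

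The question asked of shARNT was whether the same transcripts differed when ARNT, a relative of BMAL1, was lowered. ARNTL was also called lower in shARNT (log2 fold change −0.26, DESeq2 adjusted p 0.0294), a call lost without shControl replicate 2 or shARNT replicate 3. The part of that difference in the values below was not tested. PER2 and PER3 were called higher and CSNK1E lower, so that 2 of 8 were called higher, where 16.5% of 15164 genes tested were, and 1 was called lower, where 19% were. These counts were close to those shares. The median log2 fold change of the 8 genes was 0.06, against 0.0028 over all genes tested. Between the knockdowns, 4 genes were lower in shBMAL1 (PER1, PER3, CRY1 and BTRC), where 18% of 18181 genes tested were, and 1 was higher (CRY2), where 17.3% were. The median difference of the 8 genes there was −0.20, against 0.0094 over all genes tested.

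**Figure D3:**
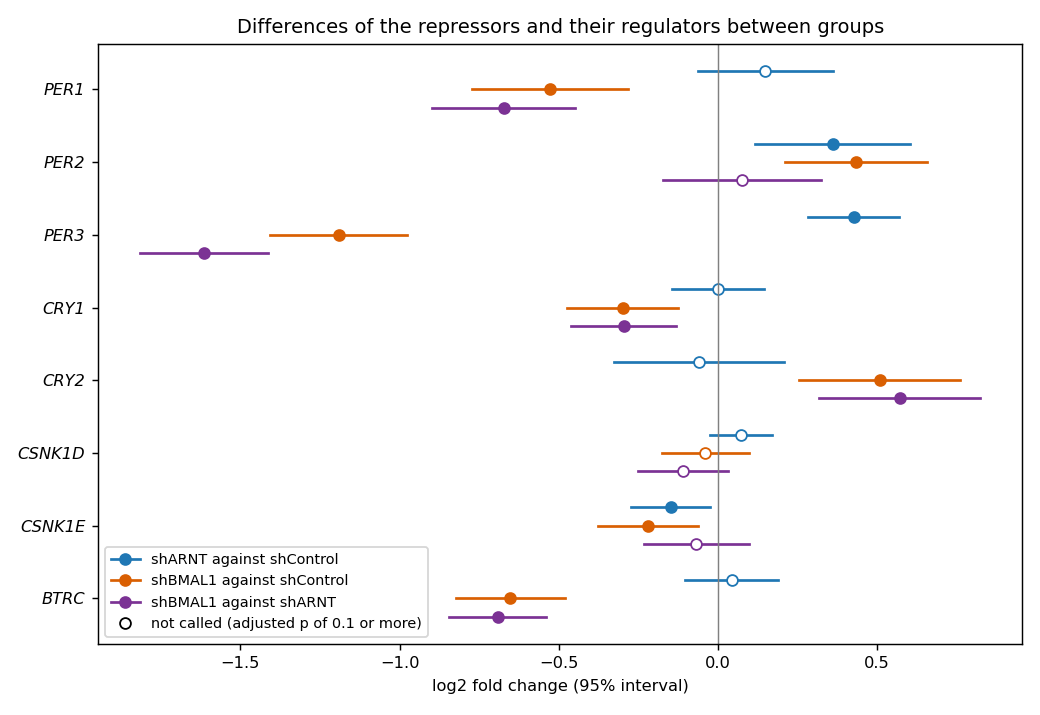
Log2 fold changes (points) of the 8 genes with 95% intervals (lines) in the 3 comparisons, filled where the DESeq2 adjusted p was under 0.1. PER3 lies at 0.43 under shARNT and at −1.19 under shBMAL1, whereas PER2 lies at 0.36 and 0.43.

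Levels of different genes were compared per kilobase of annotated exon, merged over the transcripts of a gene. In shControl the order was CSNK1D (1076 ± 5.89 normalised reads per kb, SD, n = 3), CSNK1E (534 ± 16.1), CRY1 (369 ± 27.1), BTRC (250.2 ± 20.8), PER3 (138 ± 6.52), PER1 (68.5 ± 6.50), PER2 (59.2 ± 2.18) and CRY2 (46.9 ± 3.39). No neighbours in that order overlapped between libraries, although PER1 (62.1 to 75.1) and PER2 (57.0 to 61.3) nearly met. With the longest coding transcript as the length, PER2 and CRY2 changed places. With the shortest, the mean of PER3 came below those of PER1 and PER2, at rank 7 of the 8. The kinases, CRY1 and BTRC kept ranks 1 to 4 in all groups, and the order below them differed. In shARNT, PER3 was at 186 ± 3.38 reads per kb, followed by PER2 (75.9 ± 12.0) and PER1 (75.8 ± 0.807), which overlapped, and by CRY2 (45.0 ± 3.27). In shBMAL1, PER2 came first of these at 80.1 ± 5.98, then CRY2 (66.9 ± 3.92) and PER3 (60.7 ± 8.27), which overlapped, and PER1 was last at 47.6 ± 1.95.

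The make-up of the repressor pool was then computed within each library, on the same scale per kilobase. These ratios were chosen after the values were seen, and with 3 libraries against 3 an exact two-sided permutation test cannot go below p = 0.1, so they are given as a description. PER3 made up 52.0% ± 2.33 of PER reads with shControl, 55.1% ± 1.60 with shARNT and 32.1% ± 2.37 with shBMAL1 (SD, n = 3). PER2 made up 22.3% ± 0.750, 22.4% ± 2.58 and 42.5% ± 0.393, so that, with merged exon lengths, PER2 passed PER3 in all 3 shBMAL1 libraries and in no other library. With the shortest coding transcript as length, the level of PER2 over that of PER3 was 1.03 ± 0.0559 in shControl (SD, n = 3), so this order between genes depends on the length used. The share of PER1 overlapped between shControl (25.7% ± 2.52) and shBMAL1 (25.4% ± 2.76).

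The sum of the PER genes was 266 ± 0.965 normalised reads per kb in shControl, 337 ± 15.2 in shARNT and 188 ± 12.4 in shBMAL1, with no overlap between groups. The sum of the CRY genes was 416 ± 26.3, 413 ± 15.1 and 367 ± 24.3. The level of CRY over that of PER was thus 1.56 ± 0.0943 in shControl, 1.23 ± 0.0988 in shARNT and 1.96 ± 0.216 in shBMAL1. With these lengths and with the longest coding transcripts, the knockdowns lay on opposite sides of the control in this ratio, without overlap. With the shortest coding transcripts, shBMAL1 (1.13 to 1.37) overlapped shControl (1.12 to 1.33), and shARNT (0.908 to 1.09) still lay below it. CRY1 exceeded CRY2 by 8.09, 8.69 and 6.89 times in shControl, by 8.24, 8.64 and 7.75 times in shARNT, and by 4.23, 4.96 and 4.30 times in shBMAL1. The size of this ratio depends on the lengths used: with the shortest coding transcripts its group means were 20.1, 20.9 and 11.5, and with the longest 8.56, 8.91 and 4.88. The shBMAL1 libraries lay below the others with each length.

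**Figure D4:**
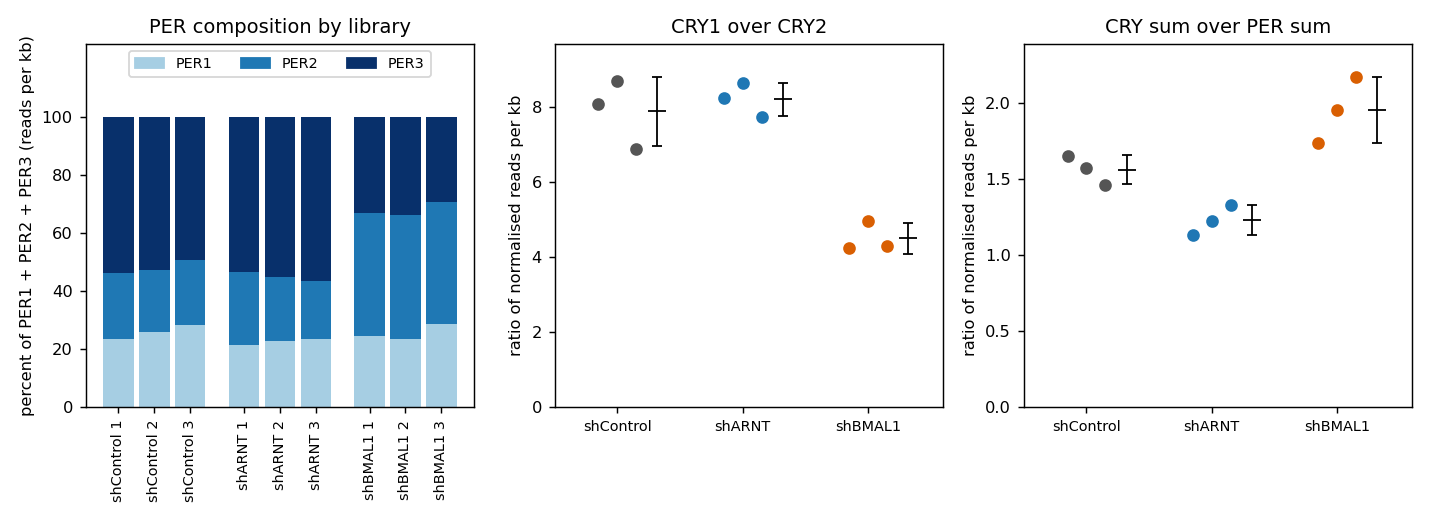
Left, PER1, PER2 and PER3 as percent of their summed normalised reads per kb in each library; middle and right, the ratios of CRY1 to CRY2 and of summed CRY to summed PER levels per kb by library (points) with mean ± SD (black, n = 3). PER2 holds 42.1% to 42.8% of the PER pool in shBMAL1 against 21.5% to 23.0% in shControl, and the CRY1 to CRY2 ratio, with merged exon lengths, falls from 7.89 to 4.50.

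The other ligase components and deubiquitinases of PER and CRY were examined next. Of 9 listed genes, 7 were tested. Under shARNT 3 rose and 0 fell, where 16.5% and 19% of all genes tested did, and under shBMAL1 2 fell and 0 rose, where 19.4% and 17.4% did. In the direct comparison 5 were lower in shBMAL1 than in shARNT, where 18% of all genes tested were. FBXW11, the paralog of BTRC, had 1730, 2048 and 1804 normalised counts in shControl, 2052, 2212 and 2202 in shARNT, and 1806, 1670 and 1679 in shBMAL1. It rose under shARNT by 0.22 (DESeq2 adjusted p 0.0175), a call lost without shControl replicate 1 (adjusted p 0.157). Under shBMAL1 its value was −0.12 (95% interval −0.28 to 0.05). The level of BTRC over that of FBXW11 per kb was 0.751 ± 0.0339 with shControl, 0.666 ± 0.0261 with shARNT and 0.518 ± 0.0145 with shBMAL1 (SD, n = 3), without overlap. This ratio was also chosen after the values were seen. Its size depends on the lengths used, and only merged exon lengths were tried. CUL1, the scaffold of the SCF ligase, fell under shBMAL1 (log2 fold change −0.31, adjusted p 2.19e-05) and was lower than under shARNT (log2 fold change −0.41, adjusted p 9.01e-09). USP7, a deubiquitinase of CRY proteins, fell under shBMAL1 (log2 fold change −0.19, adjusted p 0.00997). USP2, a deubiquitinase with a rhythmic transcript, was called higher under shARNT (0.91, adjusted p 0.0586) at only 18.0 to 87.7 counts per library in these groups, with overlap. Its call was lost without shControl replicate 1 or 2 or shARNT replicate 1 or 2 (adjusted p up to 0.413), and the direct difference of −0.72 (adjusted p 0.0993) was lost when any 1 library other than shARNT replicate 3 was left out (adjusted p up to 0.554).

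Of the 16 other kinases and phosphatases listed, 3 fell and 3 rose under shARNT (19% and 16.5% of all genes tested), 1 fell and 1 rose under shBMAL1 (19.4% and 17.4%), and 2 were lower in the direct comparison (18%). These counts were near or below the shares over all genes. PRKAA2, a catalytic subunit of AMP-activated kinase, which marks CRY1 for degradation, had 490, 553 and 578 counts in shControl and 337, 391 and 373 in shARNT. It fell under shARNT (log2 fold change −0.56, SE 0.12, DESeq2 adjusted p 1.89e-05), and under shBMAL1 its value was −0.28 (adjusted p 0.122). PPP1CC, a catalytic subunit of protein phosphatase 1, which counteracts the phosphorylation of PER, fell under shBMAL1 (log2 fold change −0.38, adjusted p 6.00e-05) and gave −0.40 in the direct comparison (adjusted p 4.48e-06). DYRK1A, a kinase that phosphorylates CRY2 ahead of its degradation, rose under shARNT by 0.23 (adjusted p 0.0200) and under shBMAL1 by 0.24 (adjusted p 0.0273). The first call was lost without shControl replicate 3 (adjusted p 0.174), and the second without that library or shBMAL1 replicate 2 (adjusted p up to 0.209). Under shARNT, CSNK1G3 was called lower (−0.19, adjusted p 0.0708), a call lost without each of the 6 libraries in turn (adjusted p up to 0.247). CSNK1G1 was called higher (0.27, adjusted p 0.0873), a call lost without shControl replicate 1 or 3 or shARNT replicate 1 or 2 (adjusted p up to 0.424). The direct call for PRKAA1 (−0.15, adjusted p 0.0705) was lost without shARNT replicate 1 or 2 or shBMAL1 replicate 1 or 2 (adjusted p up to 0.30).

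Of 7 partners of the repressor complex, 1 fell and 2 rose under shARNT, and 2 fell and 1 rose under shBMAL1, which is close to the shares of all genes tested (19% and 16.5%, and 19.4% and 17.4%). CIPC, which binds CLOCK and inhibits it, had 183, 154 and 147 counts in shControl, 206, 215 and 200 in shARNT, and 140, 124 and 146 in shBMAL1. CIPC was lower in shBMAL1 than in shARNT, with a log2 fold change of −0.60 (SE 0.17, DESeq2 adjusted p 0.00265), while its higher call under shARNT (0.36, adjusted p 0.0872) was lost without any 1 library other than shControl replicate 1 (adjusted p up to 0.283). WDR5, a histone methyltransferase subunit found with PER1, fell under shBMAL1 (log2 fold change −0.36, adjusted p 2.33e-05) and gave −0.28 in the direct comparison (adjusted p 0.00101). PARP1, which modifies CLOCK, fell under shARNT (log2 fold change −0.31, adjusted p 8.50e-06) and under shBMAL1 (−0.22, adjusted p 0.00608). SIRT1, a deacetylase of PER2 and BMAL1, rose under shARNT by 0.25 (adjusted p 0.0105), a call lost without shControl replicate 1 (adjusted p 0.115). NONO, an RNA-binding partner of PER, rose under shBMAL1 by 0.18 (adjusted p 0.00600), and its direct call (0.14, adjusted p 0.0482) was lost without any 1 library other than shBMAL1 replicate 1 (adjusted p up to 0.186).

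These 3 lists held 30 tested genes. Under shARNT 4 were lower and 8 higher, where 19% and 16.5% of all genes tested were. Under shBMAL1 5 were lower and 2 higher, where 19.4% and 17.4% were, and in the direct comparison 9 were lower and 1 higher, where 18% and 17.3% were. Both counts under shBMAL1, the lower count under shARNT and the higher count in the direct comparison lay below the shares over all genes. Their median log2 fold changes were 0.07, −0.05 and −0.09, against 0.0028, 0.015 and 0.0094 over all genes tested. The 8 higher under shARNT became 3, 5, 4 and 3 without shControl replicate 1, shControl replicate 3, shARNT replicate 1 and shARNT replicate 2, and the 4 lower became 2 without each library but shARNT replicate 3. The 2 higher under shBMAL1 became 1 without shControl replicate 3 or shBMAL1 replicate 2, and the 1 higher in the direct comparison became 3 without shBMAL1 replicate 1 and 0 without each other library.

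The activators that PER and CRY repress are given for context. CLOCK fell under shBMAL1 (log2 fold change −0.43, DESeq2 adjusted p 2.31e-06) and was at −0.11 under shARNT (adjusted p 0.254). ARNTL2, a close paralog of BMAL1, fell under shBMAL1 (log2 fold change −0.58, adjusted p 2.83e-09) and under shARNT (−0.26, adjusted p 0.00616). ARNTL itself fell under shARNT (log2 fold change −0.26, adjusted p 0.0294), a call lost without shControl replicate 2 or shARNT replicate 3 (adjusted p up to 0.220). ARNT, the other targeted gene, was called lower under shBMAL1 (log2 fold change −0.23, adjusted p 0.0187). That call was lost without shControl replicate 2 or shBMAL1 replicate 2 (adjusted p 0.162 and 0.109). NPAS2, which can take the place of CLOCK, was not called in any comparison (0.16 under shARNT and 0.24 under shBMAL1, adjusted p 0.254 and 0.116).

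Of 8 other genes that BMAL1 and CLOCK are known to drive through E-boxes, 6 rose and 1 fell under shARNT (16.5% and 19% of all genes tested), 5 fell and 0 rose under shBMAL1 (19.4% and 17.4%), and 6 were lower and 1 higher in the direct comparison (18% and 17.3%). NR1D1, which encodes the repressor REV-ERBα, fell under shBMAL1 (log2 fold change −1.75, adjusted p 9.97e-48), and so did NR1D2 (log2 fold change −0.60, adjusted p 2.36e-06). NR1D1 was lower in shBMAL1 than in shARNT (log2 fold change −2.05, DESeq2 adjusted p 3.48e-72), and so was NR1D2 (log2 fold change −1.12, adjusted p 1.25e-21). CIART, a repressor of BMAL1 and CLOCK, had 294, 320 and 344 counts in shControl, 581, 590 and 589 in shARNT, and 311, 301 and 249 in shBMAL1, and rose under shARNT by 0.88 (adjusted p 8.89e-14). DBP, an activator that binds D-boxes, rose under shARNT by 1.05 (adjusted p 0.000292) from 45.0 to 62.4 counts in shControl to 93.3 to 117 in shARNT. BHLHE40, an E-box repressor and also a hypoxia gene, fell under shARNT (log2 fold change −0.49, adjusted p 2.57e-14). It also fell under shBMAL1 (log2 fold change −0.34, adjusted p 1.83e-05). Its level was higher in shBMAL1 than in shARNT by 0.16 (adjusted p 0.0861), a call lost without shARNT replicate 1 or 3 or shBMAL1 replicate 1 (adjusted p up to 0.392).

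**Figure D5:**
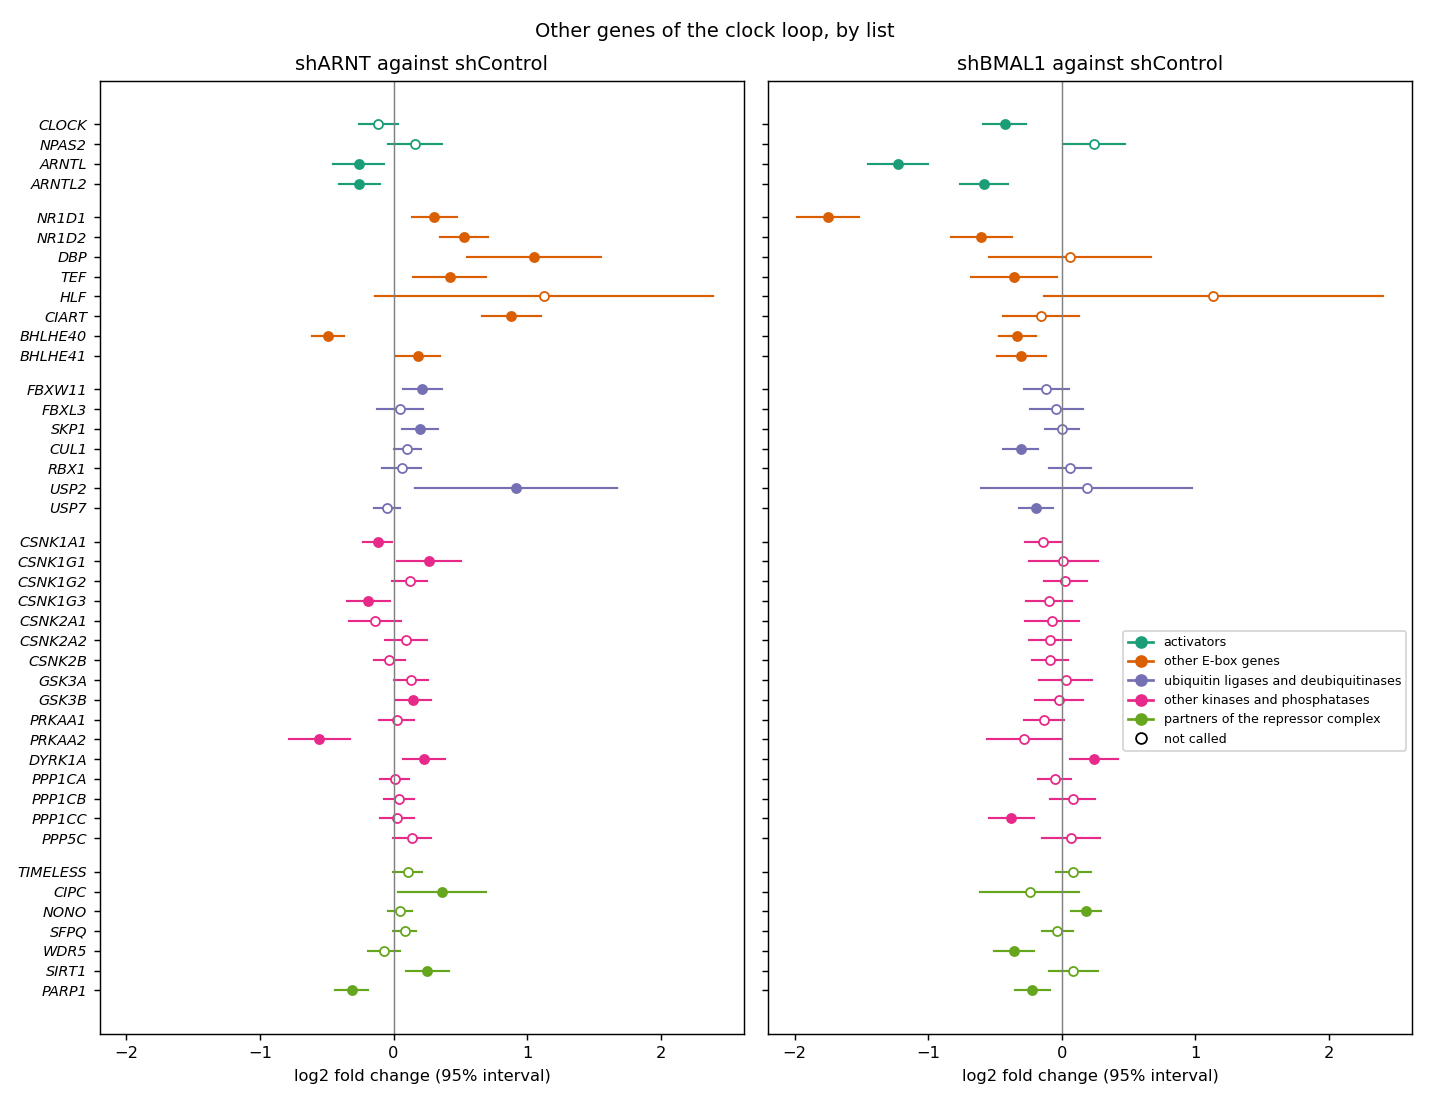
Log2 fold changes with 95% intervals of the activators, other E-box genes, ligases and deubiquitinases, kinases and phosphatases, and partners, under shARNT (left) and shBMAL1 (right), on 1 shared axis; filled points had a DESeq2 adjusted p under 0.1. NR1D1 and NR1D2 lie above 0 under shARNT and below 0 under shBMAL1, and HLF, with few counts, has the widest intervals.

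The genes whose pattern over the 9 libraries was most like each repressor were found by Pearson r of log2(normalised count + 1) among 12917 genes with a mean of at least 50. The 9 points share 3 groups, so r follows mainly the group levels and is given as a description. For PER3 these were NPC1 (r = 0.997), TSNAX (0.996) and STXBP5-AS1 (0.994), with mean TSNAX counts of 1260 with shControl, 1458 with shARNT and 715 with shBMAL1. For PER1 they were MED16 (0.989), PLIN2 (0.985) and STMN3 (0.985), and for PER2 LOC100506639 (0.970), DLGAP1-AS1 (0.954) and CES2 (0.954). For CRY1 they were RFK (0.978), MAGOHB (0.972) and CAND1 (0.967), and for CRY2 PYROXD2 (0.987), MPND (0.977) and MIR4700 (0.976). None of the 3 for any repressor was another member of the loop. PYROXD2 showed the CRY2 pattern at 386, 352 and 612 mean counts in shControl, shARNT and shBMAL1.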

How the data were processed

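The authors deposited estimated counts (linear total reads of each gene), 1 column for each of the 9 libraries. Sources differed on how they were made: the submitters' processing notes name STAR, DESeq2 and hg38, and the study's methods name SeqMan NGen, ArrayStar and GRCh37. Library preparation was stranded, and neither the annotation nor the use of strand in counting was given. The value 0.009 stood for 0 (46.3% of cells) and was set to 0. Fractional values (6.14% of the others) were rounded, and 53 rows sharing a name were merged, which left 38021 genes. In 28 rows a date stood in place of a symbol; they were fitted but not named.

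For each comparison, DESeq2 (version 1.42.0, R 4.3.3) was run on all genes in 6 libraries, scaled by median of ratios. P values came from its two-sided Wald test and were adjusted by Benjamini-Hochberg after independent filtering at 0.1. Normalised read counts use size factors over 9 libraries. Libraries held 33793045 to 35444735 reads. Whether replicates came from separate infections was not stated, so p values measure only the spread between these libraries. Same-group pairs differed by more than sampling noise (chi-square per degree of freedom 7.60 to 17.6), so none was a copy. Lengths and GRCh37 positions came from the GENCODE annotation lifted to that build, and windows from RefSeq on GRCh38.p14. The fit was tested on simulated counts.

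Alternatives were the quasi-likelihood test of edgeR 4.0.16, TMM size factors, a filter of 10 counts in 3 libraries, an adjusted p under 0.05, a change of 1.5-fold, 1 fit of 9 libraries, a replicate block, no mitochondrial genes (37 rows), a GC correction (loess span 0.3, genes with a mean of at least 50), rounding down, and leaving out each library. Adding the readthrough row to CSNK1E was chosen after seeing the data. Named were the 8 genes, the targeted genes, the activators, at most 2 called genes per list, direction and comparison by size, and the 3 genes most like each repressor. The genes and lists were chosen with earlier results of these data known.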

Additional observations from a re-analysis of the deposited data

How the results depend on the processing

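The calls of PER1, PER3, CRY1, CRY2 and BTRC under shBMAL1, and of PER3 under shARNT, were the same with edgeR, TMM size factors, the count filter, an adjusted p under 0.05, 1 fit of 9 libraries, the GC correction, rounding down, no mitochondrial genes and each library left out. Of the 8 genes, the 1 lower under shARNT became 0 at an adjusted p under 0.05, in 1 fit of 9 libraries, with the GC correction and at 1.5-fold (0 to 1 without single libraries), and the 2 higher became 0 at 1.5-fold (1 to 2). At 1.5-fold, 2 of the 8 were lower and 0 higher under shBMAL1, and 0 were higher in the direct comparison. Without single libraries, 4 to 5 were lower under shBMAL1 and 4 to 5 in the direct comparison. CSNK1D was called higher under shARNT with the GC correction (0.11, DESeq2 adjusted p 0.0564). For the regulator lists under shARNT, the 4 lower became 2 at 0.05 and 0 at 1.5-fold (2 to 3 without single libraries), and the 8 higher became 12 with the GC correction, 5 with TMM size factors, 4 at 0.05 and 1 at 1.5-fold (3 to 7). Under shBMAL1 the 5 lower became 8 with the GC correction and 0 at 1.5-fold (5 to 7), and the 2 higher became 0 at 1.5-fold (1 to 3). In the direct comparison the 9 lower became 2 at 1.5-fold (6 to 11), and the 1 higher became 2 with edgeR or the GC correction and 0 at 1.5-fold (0 to 3). The sign turned only for values that were not called: CRY1 under shARNT with edgeR (−0.0035), TMM size factors (−0.0091), 9 libraries (−0.0016) and the GC correction (−0.057), and from −0.056 to 0.048 without single libraries; CSNK1D under shBMAL1 with the GC correction (0.019) and −0.11 to 0.0041 without single libraries; PER2 in the direct comparison (−0.035 to 0.19) and BTRC under shARNT (−0.0058 to 0.11) without single libraries. The cause of these shifts was not tested. Replicate numbers are shared by the groups but did not pair the libraries, as same-numbered libraries deviated with r from −0.154 to 0.105. With the replicate number as a block, no count of the 8 genes changed, and the regulator lists under shARNT gave 2 lower and 4 higher. With the shortest transcript as length, 5 of 8 genes kept their rank in shControl. By Spearman rho, 1, 1, 0, 0 and 0 of the 3 genes most like PER1, PER2, PER3, CRY1 and CRY2 remained.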
